A study of Rattus norvegicus with 16 samples.

Results

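Aquaporin-4 (Aqp4), aquaporin-1 (Aqp1), dystrophin (Dmd), utrophin (Utrn), dystroglycan (Dag1) and the alpha-, beta- and delta-sarcoglycans (Sgca, Sgcb, Sgcd) were followed in torn and denervated rat rotator cuff muscle. These 8 genes were taken by symbol from a table of 17147 genes. All 8 had enough fragments to be among the 11658 genes tested. They were listed with results from these libraries known, and Aqp4 was listed because it had fallen, so its levels are given as a description without a test. The question asked of the others is whether they moved with it.

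The libraries came from the supraspinatus, a muscle of the rotator cuff, of Sprague Dawley rats. One group of 4 was taken at 0 days from unoperated controls. The other groups, also of 4, were taken 10, 30 and 60 days after an operation that cut through the full thickness of the supraspinatus on both sides and, by suprascapular neurectomy, removed part of its nerve. Tear and nerve loss were thus given together, so that their effects cannot be told apart, and no group had a sham operation. The labels give no age or sex, no other treatment or genotype, and do not say which libraries shared a rat, so the p-values measure only the spread between libraries.

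In skeletal muscle, aquaporin-4 is a water channel of the fibre membrane, known above all from fast fibres. Its tail is held there by syntrophins, adaptors that bind dystrophin and dystrobrevin. Dystrophin ties the actin cytoskeleton to dystroglycan, whose outer subunit binds laminin, and the sarcoglycans with sarcospan flank dystroglycan in the membrane. Utrophin is the close relative of dystrophin that is found at the neuromuscular junction in adult fibres and spreads over the membrane of developing and regenerating ones. Aquaporin-1 is the water channel of capillary endothelium and red cells and is no part of this complex.

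The promoters of Dmd and Utrn are shown because the 2 transcripts moved differently, that of Sgca because it changed course between 10 and 30 days, and that of Aqp1 as the endothelial comparison. RefSeq promoter sequences on the rat assembly GRCr8 were found for 7 of the 8 members, and the 250 bases before a start are printed 5′ to 3′ on the gene's own strand. Capitals mark matches, on either strand, to 3 motifs. They are the E-box CANNTG (bound by myogenic factors such as MyoD), a loose form of the MEF2 motif and the CArG box (bound by serum response factor). The MEF2 form was CTA and TAG with any 4 bases between.
Dmd, chrX:51205836-51206085, plus strand: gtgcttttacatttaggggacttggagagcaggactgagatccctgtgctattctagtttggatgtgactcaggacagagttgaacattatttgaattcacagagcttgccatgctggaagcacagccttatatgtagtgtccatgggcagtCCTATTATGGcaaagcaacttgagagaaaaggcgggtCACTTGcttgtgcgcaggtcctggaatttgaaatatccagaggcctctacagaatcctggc
Utrn, chr1:9044488-9044737, minus strand: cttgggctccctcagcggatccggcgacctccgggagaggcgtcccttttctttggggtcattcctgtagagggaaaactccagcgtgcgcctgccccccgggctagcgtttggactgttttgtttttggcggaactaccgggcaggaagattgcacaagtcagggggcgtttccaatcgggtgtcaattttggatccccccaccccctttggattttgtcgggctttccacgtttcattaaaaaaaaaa
Sgca, chr10:80416076-80416325, minus strand: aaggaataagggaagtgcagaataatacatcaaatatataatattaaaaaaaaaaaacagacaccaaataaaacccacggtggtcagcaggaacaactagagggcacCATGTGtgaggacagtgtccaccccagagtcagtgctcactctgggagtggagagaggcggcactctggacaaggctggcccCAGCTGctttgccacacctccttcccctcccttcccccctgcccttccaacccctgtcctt
Aqp1, chr4:85812534-85812783, plus strand: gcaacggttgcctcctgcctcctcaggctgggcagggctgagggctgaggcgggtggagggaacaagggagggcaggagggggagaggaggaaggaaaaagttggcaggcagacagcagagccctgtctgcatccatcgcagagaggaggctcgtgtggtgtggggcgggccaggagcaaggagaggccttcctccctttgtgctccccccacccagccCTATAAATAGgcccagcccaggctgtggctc
The Dmd window, that of the first of 3 starts in the table, held a CArG box 98 to 89 bases before the start and an E-box 61 to 56 bases before it. The Utrn window held none of the 3 motifs. The Sgca window held E-boxes at 143 to 138 and 61 to 56 bases, and the Aqp1 window a MEF2 motif at 31 to 22 bases. Among 33469 promoter windows of the same length, 65.5% held an E-box, 3.41% this loose MEF2 form and 1.5% a CArG box. Such matches describe letters, not bound sites. The deposited table has 1 row for Dmd, so full-length dystrophin and the short products of its inner starts could not be separated.

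Totals ran from 17.2 to 39.9 M fragments (M, mega) per library. The floor used here, 3 fragments, corresponded to 0.0752 to 0.175 per 1 M fragments, without the TMM scaling given next. CPM are a gene's fragments per 1 M fragments after scaling with TMM factors, which ran from 0.750 to 1.24. Levels are not divided by transcript length and are compared between libraries, not between genes. The libraries read as skeletal muscle: Ckm, Acta1, Mb and Pygm summed to between 30349 and 130726 CPM, Myot was at 0 in every library, and Tcap was not analysed here. With 0 in every library, a gene without transcript cannot be told apart from one whose fragments were not counted. With library totals in place of TMM, the median change of all genes shifts up by 0.66, 0.49 and 0.41 (log2) at 10, 30 and 60 days against 0 days. Library 1 at 60 days stood apart in Dmd, Sgca and several other genes. The main results that rest on it are given with and without it.

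Aqp4 was the member with the deepest loss. At 0 days its level was 285, 308, 237 and 328 CPM in the 4 libraries, and at 10 days it was 7.43, 2.46, 2.24 and 2.92 CPM. It was 11.4, 49.6, 40.4 and 32.7 CPM at 30 days and 66.1, 70.4, 81.0 and 67.1 CPM at 60 days. No library of one time overlapped with any library of another, and the order from low to high was 10, 30, 60 and 0 days. The means were 289.6 CPM ± 39.4 (SD, n = 4) at 0 days and 3.76 ± 2.46 at 10 days, or 1.30% of the 0-day mean. They came back to 33.5 ± 16.3 at 30 days (11.6%) and 71.1 ± 6.81 at 60 days (24.6%). As log2 fold changes against 0 days these are -6.25 ± 0.45 (SE), -3.11 ± 0.38 and -2.03 ± 0.36. Counted from the most negative, Aqp4 ranked 2 among the 11658 tested genes at 10 days, 32 at 30 days and 85 at 60 days. Scaled by library totals the 3 values were -5.60, -2.64 and -1.62, and without library 1 at 10 days, whose level was the highest of its group, the first was -6.83. In whole muscle, fewer fibres and less transcript per fibre cannot be told apart.

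Fast-fibre markers fell at the same times. All 7 (Myh4, Actn3, Tnnt3, Tnni2, Mylpf, Pvalb and Mybpc2) were lower at 10 days, 5 at 30 days and 4 at 60 days. Of all tested genes 29.4%, 30.9% and 29.1% were called lower at these times. With library totals 6, 3 and 4 of the 7 markers were lower and 0, 2 and 1 higher. Under that scaling 80.2%, 75.1% and 69.9% of all tested genes were called in either direction. Their summed level ran from 125125 to 139502 CPM at 0 days, 37606 to 42684 CPM at 10 days, 54657 to 82020 CPM at 30 days and 61891 to 73206 CPM at 60 days. Aqp4 fell by more than this sum did. Per 1000 CPM of the 7 markers, the muscle held 1.89 to 2.36 CPM of Aqp4 at 0 days and 0.0525 to 0.198 at 10 days. It then held 0.208 to 0.718 at 30 days and 0.959 to 1.11 at 60 days, all under the lowest 0-day value. Slow-fibre markers were lower in 6 of 6 at 10 days, 1 of 6 at 30 days and 0 of 6 at 60 days (edgeR; at an unadjusted p under 0.05, 0 were lower and 1 was higher). With library totals 5, 0 and 0 were lower and 0, 3 and 3 higher. What part the fibre types play in the level of Aqp4 was not tested.

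**Figure D1:**
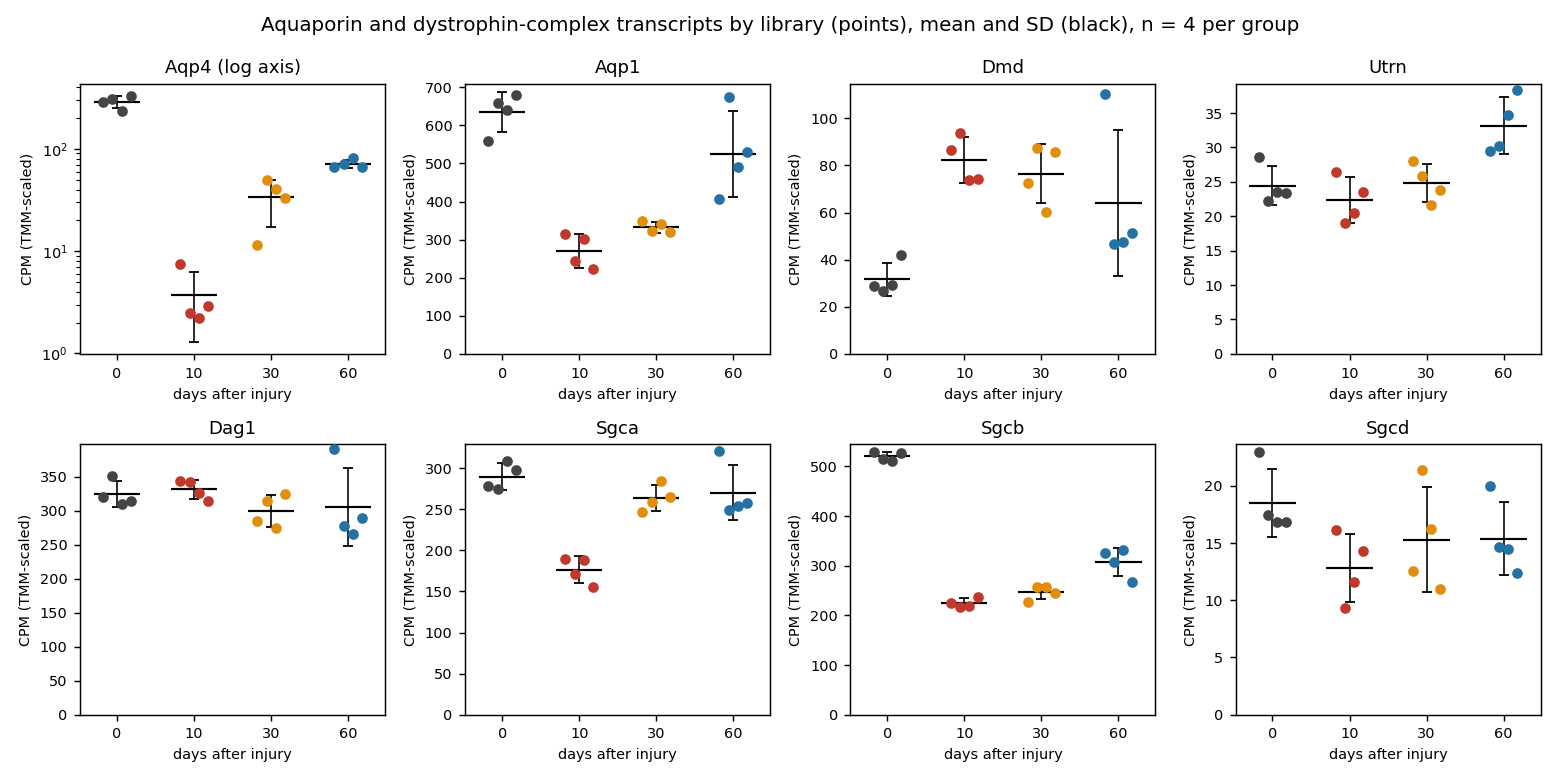
Level of each of the 8 members in every library, in TMM-scaled CPM by days after injury, with points for libraries and black bars for the mean and SD of each group (n = 4); Aqp4 is on a log axis and the others start at 0. Aqp4 drops from 237 to 328 CPM at 0 days to 2.24 to 7.43 CPM at 10 days, Dmd is higher in all injured libraries than in every 0-day library, and Dag1 overlaps across the times.

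Among the other 7 members, 1 was higher and 4 were lower at 10 days (edgeR quasi-likelihood test, Benjamini-Hochberg adjustment over all tested genes, called at an adjusted p under 0.05). Over all tested genes 33.3% were called higher and 29.4% lower, 62.7% in all, so such a count is common here. At 30 days 1 was higher and 2 were lower, beside 33.7% and 30.9% of all genes (64.6% in all). At 60 days 2 were higher and 1 was lower, beside 29.9% and 29.1% (59.0% in all). The median log2 fold change of the 7 was -0.53, -0.14 and -0.10 at the 3 times, and that of all tested genes was 0.06, 0.05 and 0.04. With library totals the splits were 3 higher and 2 lower, 4 and 2, and 4 and 1, beside 80.2%, 75.1% and 69.9% of all tested genes called under that scaling. The falls of Sgcb at the 3 times and of Aqp1 at 10 and 30 days were called under both scalings, as were the rises of Dmd. Those of Sgca and Sgcd at 10 days were not.

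Sntb1, for beta-1-syntrophin, was higher at 10 days, when Aqp4 was lowest. It had 1.01, 1.5, 1.87 and 1.15 CPM at 0 days and 6.5, 4.40, 4.48 and 5.56 CPM at 10 days. The groups did not overlap, and the log2 fold change was 1.90 ± 0.33 (SE, adjusted p 8.88e-05). At 30 days the levels were 4.92, 1.92, 1.64 and 2.45 CPM, and the change of 0.96 ± 0.33 (adjusted p 0.0187) rested on the first library, without which it was 0.52 (adjusted p 0.117); it was also not called without library 1 at 0 days (adjusted p 0.0510). At 60 days Sntb1 was at 1.57, 1.18, 0.585 and 1.29 CPM, and the change was -0.25 (95% interval -1.04 to 0.53). Its fragments were few. Sntb2, for beta-2-syntrophin, lay at 0.427 to 1.11 CPM in all 16 libraries and was not called at any time, with log2 fold changes of -0.07, 0.29 and 0.37. With library totals it was called higher at 30 days (0.79, adjusted p 0.0427).

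Dtnb, for beta-dystrobrevin, a partner of the syntrophins, was higher at 10 days by 0.65 ± 0.24 (log2, SE, adjusted p 0.0283), a call lost without any one of 3 libraries (libraries 1 and 2 at 0 days and 1 at 10 days). Its changes at 30 and 60 days were 0.33 and 0.08 and were not called. Scaled by library totals, the 30-day value was 0.83 and was called (adjusted p 0.00689). Sntg1 and Sntg2, for the gamma-syntrophins, had too few fragments for a test, and Dtna was not analysed here.

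Dmd rose while Aqp4 fell. Its level was 28.6, 26.7, 29.2 and 42.0 CPM at 0 days and 86.5, 93.8, 73.9 and 74.4 CPM at 10 days. It was 72.5, 87.6, 60.4 and 85.6 CPM at 30 days and 110, 46.7, 47.7 and 51.2 CPM at 60 days. All 12 injured libraries were higher than all 4 unoperated ones. The rise was 2.60-fold at 10 days (log2 1.38 ± 0.25 SE, adjusted p 0.000152), 2.42-fold at 30 days (1.28 ± 0.25, adjusted p 0.000316) and 2.03-fold at 60 days (1.02 ± 0.25, adjusted p 0.00225). The 60-day mean of 64.0 CPM ± 31.0 (SD, n = 4) became 48.6 ± 2.38 (n = 3) without library 1, and the rise became 0.62 (adjusted p 0.00286). With library totals the 3 changes were 2.03, 1.77 and 1.41.

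Utrn did not share the early rise of Dmd. It had 28.6, 22.3, 23.5 and 23.3 CPM at 0 days, 26.5, 19.0, 20.5 and 23.5 CPM at 10 days, 28.1, 25.8, 21.6 and 23.9 CPM at 30 days and 29.4, 30.2, 34.8 and 38.3 CPM at 60 days. The first 3 groups overlapped, and the 60-day libraries lay above all the others. The log2 fold change was -0.12 at 10 days (95% interval -0.38 to 0.13) and 0.03 at 30 days (-0.22 to 0.28). At 60 days it was 0.44 ± 0.12 (SE, adjusted p 0.00457). With library totals Utrn was called higher at all 3 times, at 0.53, 0.53 and 0.86, so its early direction depends on the scaling.

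The ratio of Utrn to Dmd within a library does not depend on the scaling. On the log2 scale, with a prior count of 2, it was 0.00, -0.26, -0.31 and -0.85 in the 0-day libraries and -1.70, -2.30, -1.85 and -1.66 in the 10-day libraries. It was -1.37, -1.76, -1.48 and -1.84 at 30 days and -1.91, -0.63, -0.45 and -0.42 at 60 days. The 10-day and 30-day libraries lay below all the unoperated ones, and 3 of the 60-day libraries lay within the 0-day range. The ratio changed by -1.52 at 10 days (95% interval -2.08 to -0.97, limma adjusted p 2.63e-07) and by -1.26 at 30 days (adjusted p 2.14e-05). Ratios to Dmd changed for 84.5% and 78.5% of all tested genes, since Dmd itself rose. At 60 days, when 65.6% of genes changed against Dmd, the value was -0.50 (95% interval -1.05 to 0.06, adjusted p 0.109), and -0.15 without library 1. Between 10 and 60 days the ratio rose by 1.03 (adjusted p 0.00163, beside 37.5% of all genes), and by 1.38 without that library.

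**Figure D2:**
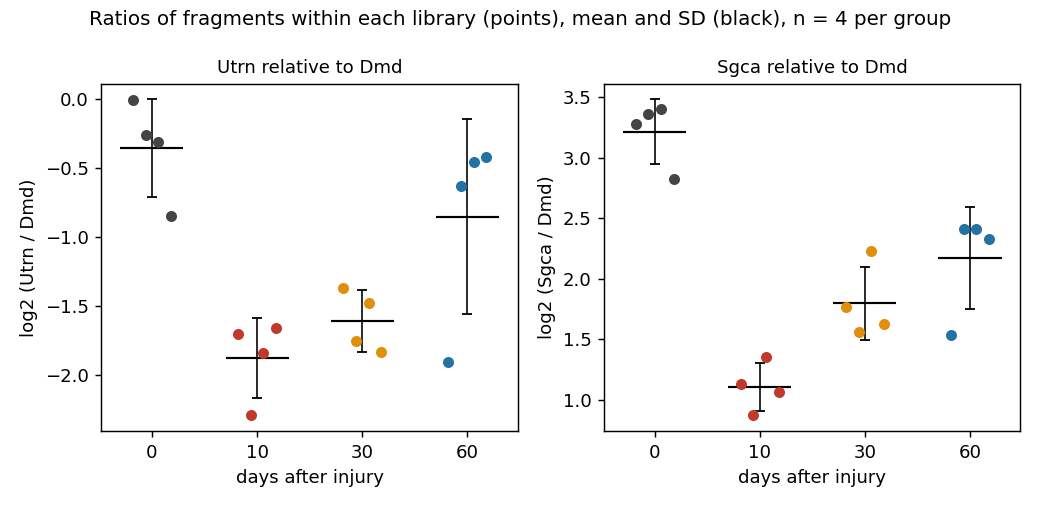
Log2 ratios within each library of Utrn to Dmd and Sgca to Dmd by days after injury, with 1 point per library. The Utrn to Dmd ratio is lower at 10 and 30 days than at 0 days, and library 1 at 60 days, at -1.91, lies apart from the other 60-day libraries.

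Dag1, for dystroglycan, the laminin receptor at the centre of the complex, held its level under TMM scaling. It had 321, 352, 310 and 315 CPM at 0 days, 343, 343, 326 and 314 CPM at 10 days, 285, 315, 275 and 324 CPM at 30 days and 390, 277, 265 and 289 CPM at 60 days. The groups overlapped throughout. The log2 fold changes against 0 days were 0.03 (95% interval -0.19 to 0.25), -0.11 (-0.33 to 0.11) and -0.09 (-0.31 to 0.13). Without library 1 at 60 days the last was -0.23 and was called (adjusted p 0.0148). With library totals the 3 values were 0.69, 0.38 and 0.32, all called higher, which is close to the shift of the median gene.

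The sarcoglycans, which brace the complex in the membrane, parted in time. Sgcb, for beta-sarcoglycan, had 528, 515, 511 and 526 CPM at 0 days and 224, 217, 218 and 238 CPM at 10 days. It had 227, 257, 256 and 246 CPM at 30 days and 325, 307, 331 and 267 CPM at 60 days. All injured libraries were below all unoperated ones. Its log2 fold changes were -1.21 ± 0.07 (SE, adjusted p 1.24e-09), -1.08 ± 0.07 (adjusted p 5.26e-09) and -0.76 ± 0.07 (adjusted p 3.78e-07), and with library totals -0.55, -0.59 and -0.35, also called lower.

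Sgca, for alpha-sarcoglycan, was low at 10 days alone among the times. Its level was 279, 274, 309 and 298 CPM at 0 days, 190, 172, 189 and 156 CPM at 10 days, 247, 259, 284 and 265 CPM at 30 days and 321, 249, 254 and 258 CPM at 60 days. The 10-day libraries lay below all 12 others, and the 30-day and 60-day groups each overlapped with the 0-day group. The log2 fold change was -0.72 ± 0.09 (SE, adjusted p 3.19e-06) at 10 days, -0.14 (95% interval -0.33 to 0.05) at 30 days and -0.10 (-0.29 to 0.09) at 60 days. With library totals it was -0.06, not called, and then 0.36 and 0.30, called higher. Without library 1 at 60 days the TMM value there was -0.20 and was called lower (adjusted p 0.0388).

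Sgcd, for delta-sarcoglycan, was called lower at 10 days. It had 22.9, 17.4, 16.8 and 16.9 CPM at 0 days, 16.1, 9.33, 11.6 and 14.3 CPM at 10 days, 12.6, 21.4, 16.2 and 11.02 CPM at 30 days and 19.97, 14.7, 14.5 and 12.4 CPM at 60 days. The 0-day and 10-day groups did not overlap, and the later groups overlapped with both. At 10 days the change was -0.53 ± 0.21 (SE, adjusted p 0.0383), a call lost without library 1 or 2 at 0 days or library 2 or 3 at 10 days (-0.55 to -0.40, adjusted p 0.0536 to 0.126). At 30 and 60 days it was -0.27 (95% interval -0.71 to 0.18) and -0.26 (-0.71 to 0.19); without library 2 at 30 days the former was -0.48 and was called (adjusted p 0.0480).

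Sgce and Sspn, of the sarcoglycan group, were both lower at 10 days. Sgce, for epsilon-sarcoglycan, was lower at 10 days (-0.50 ± 0.16 SE, edgeR adjusted p 0.0148), a call absent without library 2 at 10 days and turned to 0.16 by library totals. By 60 days it had risen (0.74 ± 0.16, adjusted p 0.00101). The 60-day libraries, at 8.90, 12.4, 12.7 and 13.6 CPM, lay above the 0-day range of 6.02 to 7.90 CPM. Sspn, for sarcospan, was lower at 10 days (-0.38 ± 0.08, adjusted p 0.000746) and 30 days (-0.28 ± 0.08, adjusted p 0.00734) and at 60 days changed by -0.16, which was not called. Without library 1 at 60 days the 60-day Sspn value was -0.20 and was called lower (edgeR adjusted p 0.0447). Under library totals the Sspn values were 0.28, 0.22 and 0.25, all called higher. Sgce was then called higher at 30 days (0.70, adjusted p 0.00146). Sgcz, for zeta-sarcoglycan, was listed at 0 in every library, which need not mean that its transcript was absent.

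**Figure D3:**
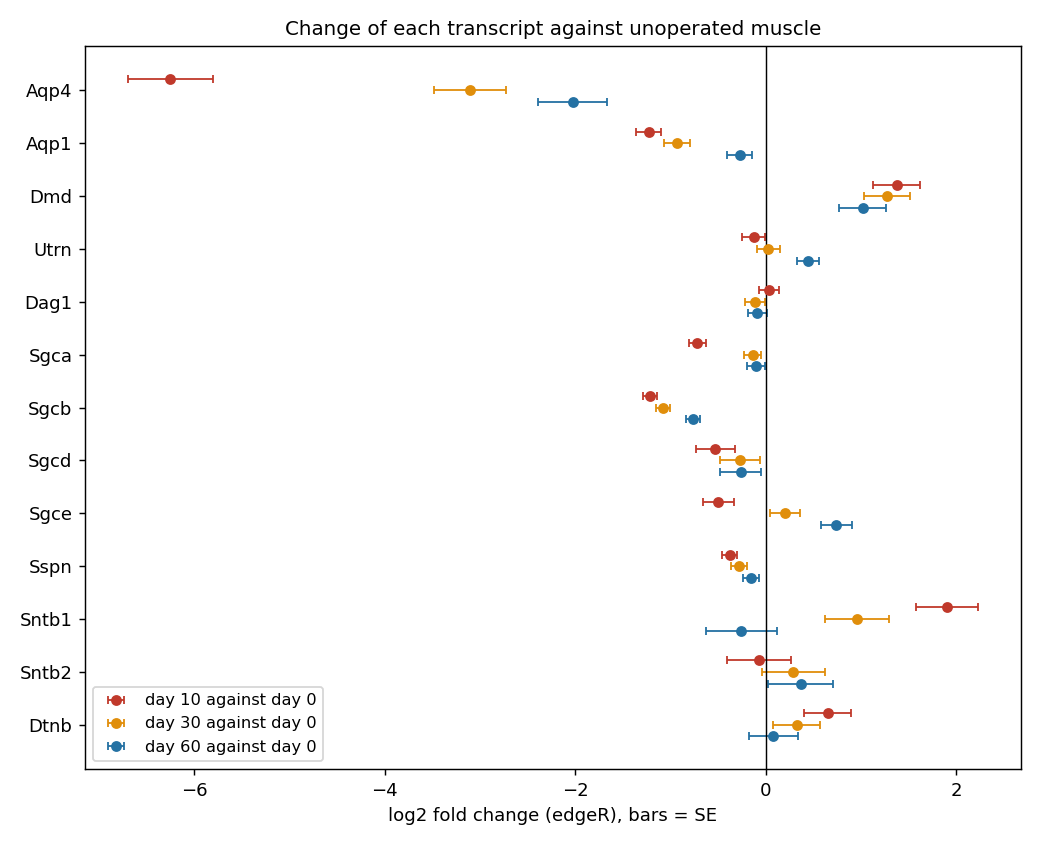
Log2 fold change (edgeR) of the 8 members, Sgce, Sspn, Sntb1, Sntb2 and Dtnb at 10, 30 and 60 days against 0 days, with bars of 1 SE around each point. Aqp4 lies at -6.25, -3.11 and -2.03, Sgcb lies near -1 at all 3 times, Dmd lies above 1, and Dag1 lies near 0.

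Aqp1 was low at 10 and 30 days. It had 559, 659, 640 and 679 CPM at 0 days and 314, 243, 301 and 224 CPM at 10 days. It had 349, 322, 340 and 319 CPM at 30 days and 406, 674, 491 and 530 CPM at 60 days. The 10-day and 30-day libraries lay below all unoperated ones, and the 60-day group overlapped with them. The log2 fold change was -1.23 ± 0.14 (SE, adjusted p 7.47e-07) at 10 days, -0.93 ± 0.14 (adjusted p 1.72e-05) at 30 days and -0.27 (95% interval -0.56 to 0.01) at 60 days. Without library 2 at 60 days the last was -0.42 and was called (adjusted p 0.00922). Scaled by library totals Aqp1 changed by -0.57, -0.44 and 0.14, the first 2 called lower.

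Of 9 endothelial markers (Pecam1, Cdh5, Tek, Kdr, Vwf, Emcn, Tie1, Esam and Cldn5, none of them at 0), 8 were lower at 10 days and 3 at 30 days, and at 60 days 1 was higher and 1 lower. Of all tested genes 29.4%, 30.9% and 29.1% were called lower at the 3 times. With library totals 1 of the 9 markers was lower at 10 days, and 4 and 8 were higher at 30 and 60 days. Under that scaling 80.2%, 75.1% and 69.9% of all tested genes were called in either direction at the 3 times. The fall of these markers thus depends on the scaling, while Aqp1 at 10 and 30 days was called lower under both. Their summed level ran from 386 to 438 CPM at 0 days, 213 to 321 CPM at 10 days, 320 to 365 CPM at 30 days and 342 to 527 CPM at 60 days. Per 1000 CPM of this sum, Aqp1 stood at 1449 to 1586 CPM at 0 days, 909 to 1140 CPM at 10 days, 933 to 1089 CPM at 30 days and 1024 to 1279 CPM at 60 days. Relative to these markers Aqp1 was thus lower in all 12 injured libraries than in the 4 unoperated ones. Red cell markers (Hba1, Hbb, Alas2 and Slc4a1), which mark the other cell known for Aqp1, were lower in 4 of 4 at 10 days, with a sum of 198 to 262 CPM against 601 to 1954 CPM at 0 days. They were lower in 2 of 4 at 30 days, or 4 of 4 at an unadjusted p under 0.05 (edgeR), and in 0 of 4 at 60 days by either measure. With library totals 4, 1 and 0 were lower. The part of blood and vessels in the level of Aqp1 was not tested.

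**Figure D4:**
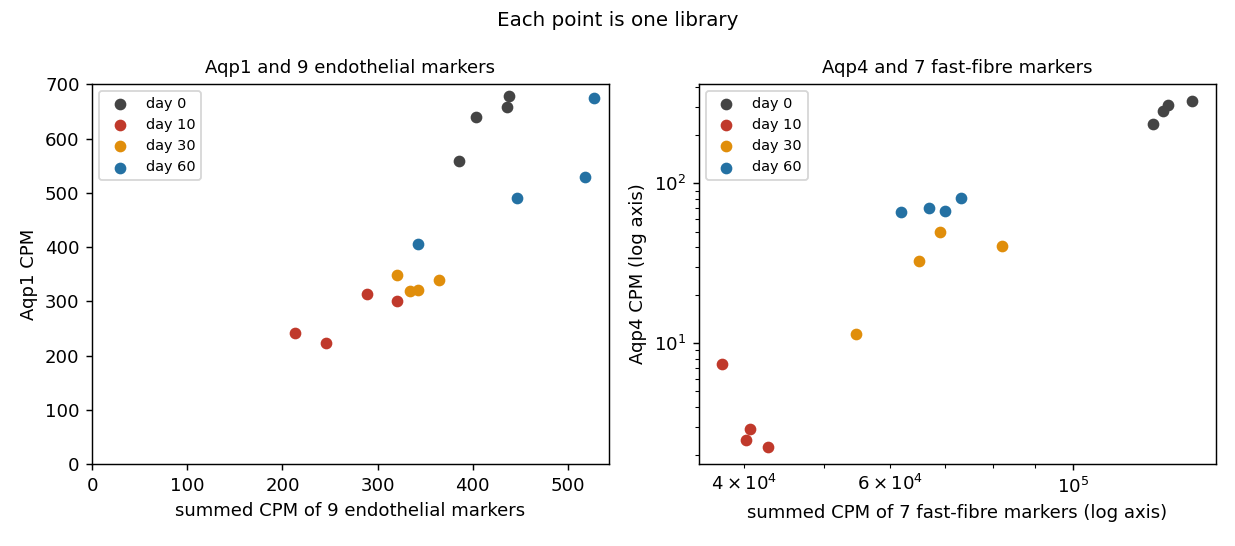
Left, Aqp1 (CPM) against the summed CPM of 9 endothelial markers; right, Aqp4 (CPM) against the summed CPM of 7 fast-fibre markers, both axes log; each point is 1 library, coloured by time. The 0-day libraries lie highest in Aqp1 for their endothelial sum, and the 10-day libraries hold the lowest values of both axes on the right.

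Other cells of the muscle also changed in share of RNA. Macrophage markers were higher in 5, 6 and 6 of 6 at the 3 times and fibroblast markers in 3, 4 and 4 of 4. Adipocyte markers were higher in 5 of 5 and Schwann cell markers in 5 of 5 at 60 days. Of all tested genes 33.3%, 33.7% and 29.9% were called higher at the 3 times. At 10 days 4 of 5 mural markers were lower (with library totals 2 lower and 1 higher), and of 3 satellite cell markers 1 was higher and 1 lower. At that time 29.4% of all tested genes were called lower, and with library totals 80.2% were called in either direction. Their part in the members' levels was not tested.

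Of 5 tested genes for proteins that bind the complex from inside the fibre, 1 was higher and 3 lower at 10 days. At 30 days 0 and 5 were, and at 60 days 0 and 2. Of all tested genes 33.3% and 29.4%, 33.7% and 30.9%, and 29.9% and 29.1% were called higher and lower at these times. With library totals the splits were 2 higher and 1 lower, 0 and 3, and 1 and 2. Beside these, 80.2%, 75.1% and 69.9% of all tested genes were called under that scaling. Nos1, for the neuronal nitric oxide synthase that is anchored to the complex, had 24.4, 15.5, 16.9 and 18.3 CPM at 0 days, 25.3, 28.0, 25.9 and 26.1 CPM at 10 days, 8.64, 5.91, 8.80 and 6.15 CPM at 30 days and 4.98, 4.15, 4.44 and 2.58 CPM at 60 days. It was highest at 10 days and lowest at 60 days, an order unlike that of Aqp4. Its changes were 0.49 ± 0.17 (SE, adjusted p 0.0193, not called without library 2 or 3 at 0 days), -1.35 ± 0.18 (adjusted p 7.27e-06) and -2.22 ± 0.19 (adjusted p 1.32e-07). Cav3, for caveolin-3, the caveolin of muscle, had 162, 146, 186 and 175 CPM at 0 days, 36.7, 15.8, 26.1 and 28.6 CPM at 10 days, 55.4, 83.4, 99.3 and 77.3 CPM at 30 days and 135, 138, 136 and 151 CPM at 60 days. Its 10-day libraries were the lowest of all, and its 60-day libraries neared or reached the 0-day range. It changed by -2.64 ± 0.21 (adjusted p 3.20e-08), -1.08 ± 0.20 (adjusted p 0.000202) and -0.26 (95% interval -0.67 to 0.16). Ank3, Plec and Flnc made up the rest of the 5, and Ank2 was not analysed here.

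Extracellular partners of dystroglycan and the sarcoglycans were higher or not called at 60 days. Of 4 tested, 1 was higher and 1 lower at 10 days, 1 and 0 at 30 days, and 3 and 0 at 60 days. Of all tested genes 33.3% and 29.4%, 33.7% and 30.9%, and 29.9% and 29.1% were called higher and lower at these times. With library totals 3, 4 and 4 of the 4 were higher and 0 lower, beside 80.2%, 75.1% and 69.9% of all tested genes called. Bgn, for biglycan, a matrix proteoglycan, was higher at all 3 times, by 2.28 ± 0.25 (log2, SE, adjusted p 1.04e-06), 2.55 ± 0.25 (adjusted p 4.48e-07) and 2.26 ± 0.25 (adjusted p 2.22e-06). Its rise stands beside that of the fibroblast markers. Lamb2, for the laminin beta-2 chain, was lower at 10 days (-0.76 ± 0.12, adjusted p 4.75e-05), changed by 0.11 at 30 days, and was higher at 60 days (0.52 ± 0.12, adjusted p 0.00178). The fall at 10 days was not called with library totals (-0.099, adjusted p 0.441), and the 30-day value was then 0.60, called higher (adjusted p 0.000216). Lama2, Lamb1 and Hspg2 were not analysed here.

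Dystroglycan binds laminin only through sugars on its outer subunit. Of 16 tested genes for the enzymes and donors that build them, 4 were higher and 8 lower at 10 days, 3 and 6 at 30 days, and 2 and 7 at 60 days. Of all tested genes 33.3% and 29.4%, 33.7% and 30.9%, and 29.9% and 29.1% were called higher and lower at these times. Under library totals the splits of the 16 were 10 and 4, 9 and 4, and 6 and 4. Beside them 80.2%, 75.1% and 69.9% of all tested genes were called under that scaling. Large, for the enzyme that extends the laminin-binding sugar, was lower at each time, by -0.66 ± 0.11 (log2, SE, adjusted p 3.92e-05), -0.98 ± 0.11 (adjusted p 8.01e-07) and -0.86 ± 0.11 (adjusted p 4.81e-06). With library totals its fall at 10 days was -0.0066 and was not called (adjusted p 0.956), and the later values were -0.48 and -0.46, also called lower. Pomgnt1, a glycosyltransferase of the same route, was the largest rise at 10 days (0.81 ± 0.17, adjusted p 0.000676) and B3galnt2 the largest fall (-1.23 ± 0.14, adjusted p 7.38e-07). Neither was called at 30 or 60 days, with values of 0.02 and -0.10 for Pomgnt1 and -0.16 and 0.28 for B3galnt2. With library totals Pomgnt1 was called higher at 30 days (0.52, adjusted p 0.0103) and B3galnt2 at 30 and 60 days (0.33 and 0.68, adjusted p 0.0201 and 0.000128). Without library 1 at 60 days, where Pomgnt1 stood at 149 CPM against 82.9 to 86.0 in the other 60-day libraries, its value there was -0.35 and was called (adjusted p 0.0190). B3galnt2 at 60 days was called higher without library 3 or library 4 of that time, at 0.35 and 0.36 (adjusted p 0.0396 and 0.0398).

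Together the 30 genes of the wider complex reported here gave 8 higher and 14 lower calls at 10 days, 5 and 12 at 30 days, and 6 and 9 at 60 days. The median log2 fold changes were -0.24, -0.12 and -0.13. Their shares lie beside 33.3% and 29.4%, 33.7% and 30.9%, and 29.9% and 29.1% of all tested genes. With library totals the splits were 18 and 5, 18 and 7, and 13 and 6, so the balance of lower over higher depends on the scaling. Beside these, 80.2%, 75.1% and 69.9% of all tested genes were called under library totals.

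**Figure D5:**
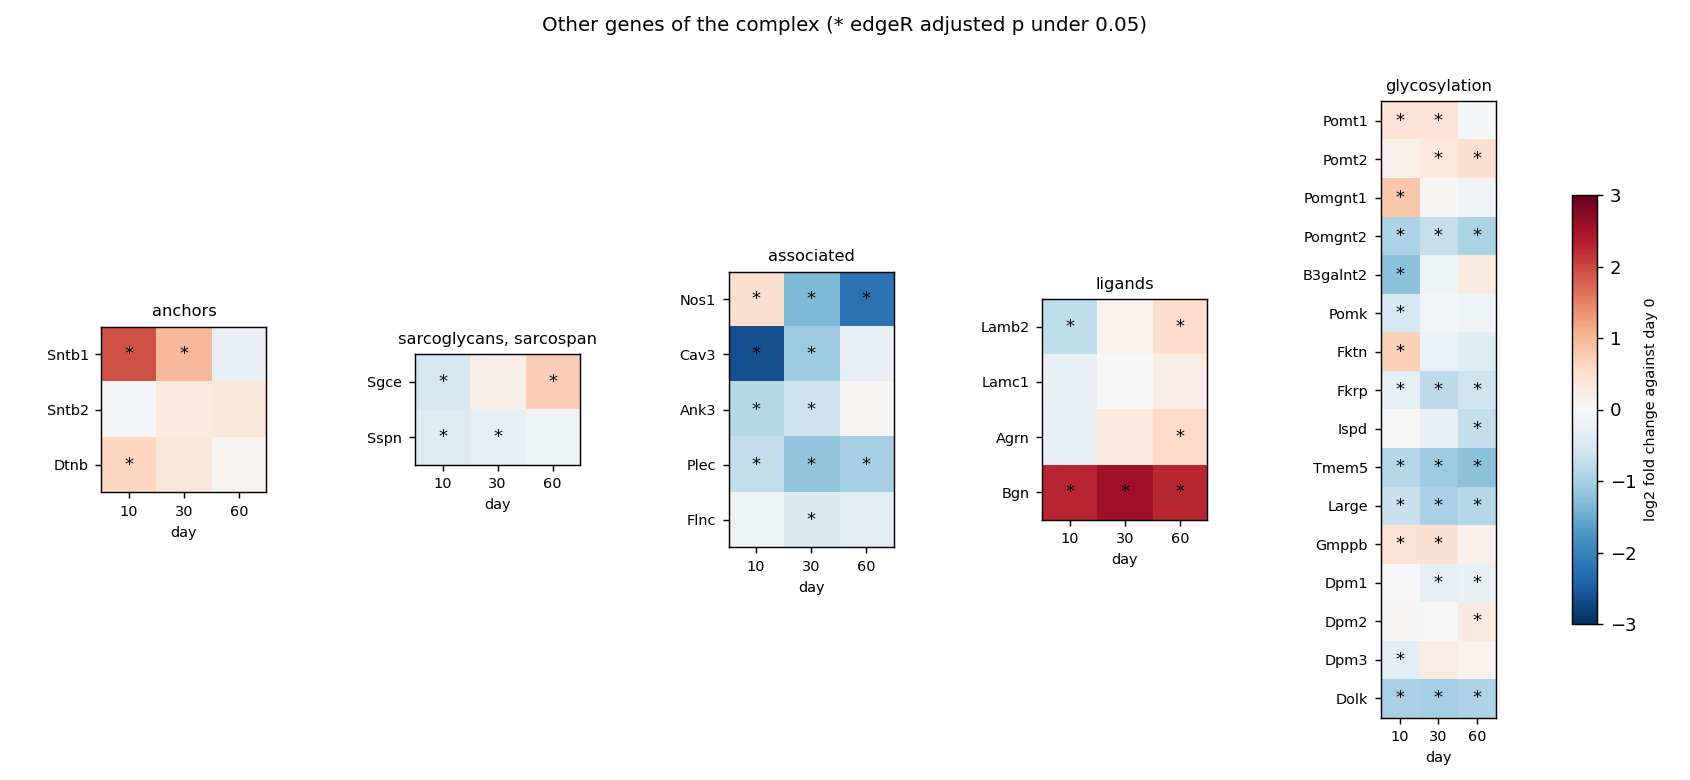
Log2 fold change of the 30 genes of the wider complex at 10, 30 and 60 days against 0 days as a colour scale, grouped by role, with an asterisk on each call at an adjusted p under 0.05. Cav3 and Nos1 hold the deepest falls of the inner partners and Bgn the largest rise among the ligands.

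Between the injured groups, under TMM scaling, the members that were called moved up. From 10 to 30 days Sgca alone of the 7 was called, higher by 0.58 ± 0.09 (log2, SE, adjusted p 6.88e-05), beside 23.0% of all genes called higher and 24.3% lower (47.3% in all). Under library totals the split was 1 higher and 1 lower, beside 47.6% of all genes called. From 30 to 60 days Aqp1 (0.66 ± 0.13, adjusted p 0.00255), Utrn (0.42 ± 0.12, adjusted p 0.0191) and Sgcb (0.32 ± 0.07, adjusted p 0.00553) were higher and none was lower, also at an unadjusted p under 0.05 (edgeR), beside 10.3% and 12.4% of all genes (22.6% in all). The Utrn call was lost without library 3 or 4 at 30 days or library 4 at 60 days (0.36 to 0.40, adjusted p 0.0506 to 0.0534). From 10 to 60 days 4 of the 7 were higher: Aqp1 by 0.96 ± 0.14 (adjusted p 1.39e-05), Utrn by 0.57 ± 0.12 (adjusted p 0.000600), Sgca by 0.62 ± 0.09 (adjusted p 1.97e-05) and Sgcb by 0.45 ± 0.07 (adjusted p 5.35e-05), beside 29.1% of all genes higher and 31.9% lower (61.1% in all). With library totals that split was 3 higher and 2 lower, beside 63.2% of all genes called. Utrn was then not called from 30 to 60 days (0.33, edgeR adjusted p 0.0953) or from 10 to 60 days (0.32, adjusted p 0.0527). Aqp1 and Sgcb stayed called higher over both spans.

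Under TMM scaling Dmd went the other way after 10 days, within its spread. Its changes were -0.10 (95% interval -0.61 to 0.40) from 10 to 30 days, -0.26 (-0.76 to 0.25) from 30 to 60 days and -0.36 (-0.87 to 0.15) from 10 to 60 days. Without library 1 at 60 days the last 2 were -0.66 (adjusted p 0.00557) and -0.76 (adjusted p 0.000538), and Dag1 from 10 to 60 days was also called lower, at -0.26 (adjusted p 0.00664). With library totals and all libraries, Dmd from 10 to 60 days was called lower at -0.62 (edgeR adjusted p 0.0308). Dag1 was then called lower from 10 to 30 days (-0.31, adjusted p 0.0183) and from 10 to 60 days (-0.37, adjusted p 0.00391). Under TMM scaling Aqp4 rose by 3.14 (10 to 30 days), 1.08 (30 to 60 days) and 4.22 (10 to 60 days). Of the 9 endothelial markers, 9 were higher from 10 to 60 days, and 7 with library totals. Over that span 29.1% of all tested genes were called higher under TMM scaling, and 63.2% in either direction with library totals.

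Over the 16 libraries, the 5 genes whose log2 CPM followed Aqp4 most closely, of 8223 genes ranked, were Ldhd (Pearson r 0.990), Slc2a4 (0.989), Flad1 (0.988), Ldha (0.988) and Atp5a1 (0.987). Slc2a4 encodes the insulin-responsive glucose transporter of muscle, Ldha a lactate dehydrogenase subunit and Atp5a1 a subunit of mitochondrial ATP synthase. Under TMM scaling these genes, picked for their likeness to Aqp4, were lower at all 3 times, but less so than Aqp4. Ldhd changed by -2.97, -1.54 and -1.12 and Slc2a4 by -1.83, -0.88 and -0.46. Their fold changes with library totals are not given here. Those nearest Utrn were Pkhd1l1 (0.872), Sec23b (0.868), Rock1 (0.863), Prex2 (0.855) and Cd9 (0.853). All libraries share the time groups, so these values describe a common course over time.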

How the data were processed

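RNA was prepared with a miRNeasy kit and sequenced from TruSeq mRNA libraries, per the labels' protocols. What the authors deposited is a single table of raw fragments, whose values are expected counts, not scaled for depth or length. Per the submitters' processing notes, the tools were bcl2fastq 1.8.4, FastQC, TopHat2 2.0.9, Bowtie2 2.1.0.0, Cufflinks and Cuffdiff 2.1.1, with build rn5. The annotation and strandedness are not given in the sources used here, so reads of overlapping genes cannot be told apart. Of 17147 genes, 233 held fractional values, and counts were rounded.

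The filter filterByExpr kept 11658 genes. A single robust edgeR quasi-likelihood fit held all 16 libraries, with TMM factors and no covariate. P-values were Benjamini-Hochberg adjusted and called under 0.05. The standard error is the log2 fold change divided by the square root of F. Ratios to Dmd were tested with limma on log2 CPM (prior count 2). Intervals are 95%, and floors (3 fragments) cover counting error only. The tests were also run on simulated counts in which few genes changed, unlike these data, so that run does not bear on the scaling.

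Groups came from the time in each label. The members and lists were chosen with earlier results of these data known, and so were the tests. Besides the members, the named genes are the detected syntrophins, dystrobrevins and sarcoglycans (a few genes of the complex are not reported here), Nos1, Cav3, Large, the largest called rise and fall at 10 days in each other list, and the 5 genes most like Aqp4 and Utrn (mean of at least 5 CPM). Library totals at 60 days were the lowest, so depth and that group cannot be told apart by totals. The alternatives were RLE and upper-quartile factors, library totals, DESeq2, limma-voom, no filter, a mean of at least 1 CPM, no robust estimation, a threshold of 0.01, fits of only the groups compared, thinning to the smallest total, the replicate number as a block, the title letter as a covariate, a prior count of 0.5 and leaving out each library. The tools were edgeR 4.0.16, limma 3.58.1 and DESeq2 1.42.0 in R 4.3.3.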

Additional observations from a re-analysis of the deposited data

Results flagged for a closer look

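Among 136 groups of 4 libraries (34 measures), 12 had 1 library far from the other 3, and chance gives about 1 in 20 such groups. At 60 days library 1 was high in Dmd (110 CPM, next 51.2), Sgca (321 CPM, next 258), Pomgnt1 (149 CPM, next 86.0) and Sntb2 (1.11 CPM, next 0.585). The log2 ratio of Utrn to Dmd was low in that library (-1.91, next -0.63). In the unoperated group library 4 was high in Dmd (42.0 CPM, next 29.2) and library 1 was high in Sgcd (22.9 CPM, next 17.4). At 10 days library 1 was high in Aqp4 (7.43 CPM, next 2.92) and in Sec23b (10.6 CPM, next 9.36), and library 2 was low in Pkhd1l1 (3.12 CPM, next 3.95). At 30 days library 1 was high in Pkhd1l1 (10.1 CPM, next 6.80), and library 2 had the largest total (39.9 M fragments, next 24.8).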

How the results depend on the processing

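Scaling was the choice that mattered most. Of the 48 changes of the 8 members (6 comparisons each), library totals kept 24, reversed 14, took 3 below and 5 past the threshold and moved 2. With library totals 6 and 5 members were called at 30 and 60 days against 0 days and 2 from 10 to 30 days, and upper-quartile factors called 3 there; at an adjusted p under 0.01, 4 genes of the wider complex were called from 30 to 60 days. By construction library totals lift nearly all changes against 0 days. Under them, signs reversed at 10 days for Utrn (0.53), Sgcd (0.13), Sntb2 (0.59), Sgce (0.16) and Sspn (0.28). At 30 days they reversed for Dag1 (0.38), Sgca (0.36), Sgcd (0.22), Sspn (0.22) and B3galnt2 (0.33). At 60 days they reversed for Aqp1 (0.14), Dag1 (0.32), Sgca (0.30), Sgcd (0.14), Sntb1 (0.15), Sspn (0.25), Cav3 (0.15) and Pomgnt1 (0.30). Between injured groups they reversed for Utrn (-0.0067) and Sgcb (-0.031) from 10 to 30 days, Dag1 (-0.065), Sgca (-0.051) and Sgcd (-0.081) from 30 to 60 days and Sspn (-0.028) from 10 to 60 days. RLE factors and DESeq2 reversed Dag1 at 10 days (-0.0038 and -0.0038), Utrn (-0.0012 and -0.00052) and Pomgnt1 (-0.0048 and -0.0047) at 30 days and Bgn from 10 to 60 days (0.0095 and 0.0094). Upper-quartile factors reversed Dag1 at 30 (0.010) and 60 days (0.052), Sgca (0.038) and Pomgnt1 (0.035) at 60 days and Bgn from 10 to 60 days (0.070). A mean of at least 1 CPM reversed Bgn from 10 to 60 days (0.011). Sgcd from 30 to 60 days, near 0, reversed with limma-voom (-0.00070), no filter (-0.0025), thinning (-0.033) and the replicate block (-0.014). The TMM factors ran from 0.750 to 0.775 in the 0-day libraries and from 0.969 to 1.24 in the injured ones. Why they differ between the groups was not tested, nor was the cause of the reversals under the other settings.

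Leaving out each library gave 4 to 5, 3 to 4 and 3 to 5 members called against 0 days at the 3 times, 1 to 2 from 10 to 30 days, 2 to 4 from 30 to 60 days and 4 to 6 from 10 to 60 days. It gave 5 to 14 genes of the wider complex from 30 to 60 days, where 10 were called with all libraries, 14 without library 1 at 60 days, 5 without library 1 at 30 days and 6 without library 4 at 30 days. The Utrn to Dmd ratio at 60 days ran from -0.66 to -0.15. Changes that turned sign ran from -0.16 to 0.15 for Sntb2 at 10 days, -0.035 to 0.12 for Utrn and -0.072 to 0.10 for Pomgnt1 at 30 days and -0.12 to 0.34 for Dtnb at 60 days. From 30 to 60 days they ran from -0.11 to 0.089 for Dag1, -0.057 to 0.074 for Sgca and -0.15 to 0.21 for Sgcd, and from 10 to 60 days from -0.15 to 0.18 for Bgn.

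Libraries with the same replicate number did not vary together on average (mean correlation of deviations 0.0013, from -0.24 to 0.22 over 24 pairs). This gave no sign of pairing by number, but an average over genes cannot exclude a shared batch. With the replicate number as a block, 5, 3 and 3 members were called at the 3 times against 0 days and 1, 3 and 4 between the later groups, as without it, and the Utrn to Dmd ratio changed by -1.52 and -1.26 at 10 and 30 days. Sntb1, Sntb2, Dtnb, Aqp11 and Mip, each under 7 CPM, rest on few fragments.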

Other observations

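Of 10 further aquaporins in the table, 3 could be tested, and they differed in direction. Aqp7, the aquaglyceroporin of fat cells and capillaries, had 14.3, 11.1, 5.31 and 11.4 CPM at 0 days and 2.12, 0.723, 1.32 and 2.58 CPM at 10 days. It had 1.52, 4.94, 3.92 and 2.37 CPM at 30 days and 2.44, 2.86, 3.92 and 4.31 CPM at 60 days. All injured libraries lay below the unoperated ones, and the group means ranked as those of Aqp4 did, though the 30-day and 60-day libraries overlapped, with log2 fold changes of -2.63 ± 0.41 (SE, edgeR adjusted p 3.72e-05), -1.70 ± 0.39 (adjusted p 0.00118) and -1.63 ± 0.39 (adjusted p 0.00227). At 60 days the 5 adipocyte markers (Adipoq, Plin1, Cidec, Lep and Cfd) were all higher, and their sum ran from 86.4 to 192 CPM against 15.2 to 73.1 CPM at 0 days. Aqp7 was low at the time when the adipocyte markers were high, and which cells its transcript came from was not tested. Aqp11, an intracellular aquaporin, was higher at 10 days (1.42 ± 0.29, adjusted p 0.000415) and 30 days (1.40 ± 0.29, adjusted p 0.000531), from 0.225 to 0.491 CPM at 0 days to 0.880 to 1.02 CPM at these times, and at 60 days its change was 0.34 ± 0.33 and was not called. Mip, known as the water channel of the lens and named here after its values were seen, had 2.79 to 3.78 CPM at 0 days, 3.06 to 3.57 CPM at 10 days, 3.96 to 5.81 CPM at 30 days and 4.33 to 5.89 CPM at 60 days. It was higher at 30 days (0.58 ± 0.15, adjusted p 0.00315) and 60 days (0.59 ± 0.15, adjusted p 0.00349) and not at 10 days (0.00030, adjusted p 0.999). With library totals it was called higher at 10 days too (0.66, adjusted p 0.00259).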
